A study of Arabidopsis thaliana with 6 samples.

Results

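Cells on their way into the first asymmetric division of lateral root initiation were compared, after 6 h of auxin, with the same kind of cells after 2 h. The comparison used 4 of the 6 arrays of the series, chosen by the time point in their labels, with 2 arrays of Arabidopsis thaliana at 6 h NAA and 2 at 2 h NAA. All samples came from J0121, a GAL4-GFP enhancer trap line, sorted by fluorescence for the xylem pole pericycle. All 3 groups of seedlings had first grown on NPA at 10 µM, which blocks the transport of auxin. At an age of 72 h after germination the seedlings of the 2 later groups were moved to 10 µM NAA, a synthetic auxin, and the seedlings were 78 h old at 6 h NAA and 74 h old at 2 h NAA. The 2 arrays of the third group, 0 h NAA, were made from 72 h old seedlings on NPA that received no NAA. They helped to estimate the spread and are given as a starting level. The labels' protocols describe the total RNA as undetectable in amount before labelling. No seedlings of the later ages without NAA enter the comparison, and hours of NAA and seedling age therefore cannot be told apart. The series' design text assigns auxin signalling and the G1-to-S step to the 2 h cells, and places the 6 h cells at the entry into mitosis or the asymmetric division.

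Lateral roots start in the pericycle cells that face the xylem poles, which leave arrest and divide asymmetrically when auxin reaches them. In plants, as in other eukaryotes, a wave of transcription in G2 supplies the kinases, motor proteins and chromosome proteins of mitosis. Plant cells then build the phragmoplast, a microtubule array guided by kinesins, in which the new cell wall forms. Aurora kinases phosphorylate chromosomes and spindle, BUB-type proteins hold division until chromosomes are attached, and SIAMESE-type proteins inhibit cyclin-dependent kinases. Walls of mature root cells are stiffened by lignin. Its deposition involves class III peroxidases and, in the Casparian strip of the endodermis, also dirigent proteins.

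Each value is a MAS5 signal of 1 array, a brightness that the authors scaled so that the trimmed mean was 250.0 on every array. Replicates correlated over probe sets at r = 0.912 at 6 h and 0.932 at 2 h. Changes are log2(signal + 5) at 6 h minus 2 h, with the standard error (SE) of the limma fit. For dim probe sets a fold on this scale is smaller than the ratio of the signals. Such low signals are themselves uncertain, so the size of these folds is only rough. Adjusted p-values are limma's with Benjamini-Hochberg adjustment over 22746 probe sets, and a gene is called below 0.05. They measure only the spread between these arrays, which the labels name biological replicates. The spiked hybridisation controls averaged 3768 and 12857 signal units on replicates 1 and 2 at 6 h, against 2430 and 7932 at 2 h. The 3′ to 5′ signal ratio of actin, a measure of RNA quality, was 4.48 and 3.84 at 6 h, against 2.98 and 1.37 at 2 h. The same ratio of GAPDH was 4.37 and 3.42 at 6 h, against 4.73 and 3.93 at 2 h, and that of ubiquitin 8.81 and 10.7, against 6.13 and 9.71. Only the actin ratio did not overlap between the times, and the part of RNA quality in the results was not tested. Of the cell type markers, 0 of 5 stele and pericycle genes had a named probe set, so the sorted cell type could not be checked here.

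More probe sets were called lower than higher after 6 h. Of 22746 probe sets, 403 were called higher (1.77%) and 699 lower (3.07%), 1102 in all (4.84%). On each of them the 6 h arrays lay wholly above or below the 2 h arrays, as they did on 10994 of all probe sets (48.3%). The 403 higher probe sets had a median of 652.2 signal units at 6 h, against 93.8 at 2 h, and stood at 96.2 at 0 h. The 699 lower ones had a median of 182.6 at 6 h, against 778.8 at 2 h, and 905.8 at 0 h. A change of at least 16-fold was found for 89 of the higher and 37 of the lower probe sets. Over all probe sets the median change was 0.11, and it was -0.04 after centring each array on its median. Counts of calls fell when 1 of the 4 arrays compared was left out. Without replicate 1 or 2 at 6 h, 158 and 164 were called higher and 392 and 345 lower, and without replicate 1 or 2 at 2 h, 226 and 224 higher and 310 and 360 lower. Without the intensity trend in limma's variance 105 were called higher and 54 lower, and 121 of the 162 calls followed gene by gene were lost. With the brighter array of each time, by its hybridisation controls, as a block, 315 were called higher and 557 lower.

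**Figure D1:**
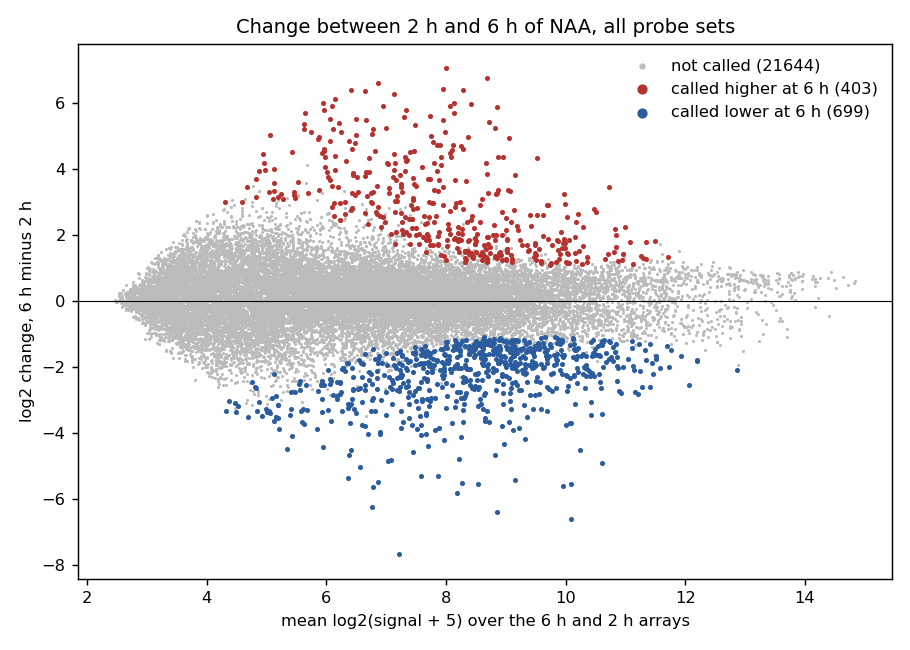
Log2 change of each probe set, 6 h minus 2 h, against its mean log2(signal + 5) over the 6 h and 2 h arrays. Each point is 1 of 22746 probe sets, with the 403 called higher at 6 h in red and the 699 called lower in blue. The largest changes in both directions lie at intermediate mean levels, where 1 of the times is dim.

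Of 21 measured genes on 4 lists of mitotic kinases, checkpoint, chromosome and motor proteins, 19 were called higher at 6 h. The lists were chosen with earlier results of these data known, so this count is a description. The call held whichever array was left out for 1 Aurora kinase, 1 checkpoint gene, 3 chromosome proteins and 5 mitotic kinesins. In the counts that follow each locus counts once, and 210 of 13286 named loci (1.58%) were called higher and 317 (2.39%) lower. All 3 Aurora kinases rose. AUR1, which acts on the spindle and the forming cell plate, gave 2163.0 and 2310.1 signal units at 6 h, against 85.3 and 126.3 at 2 h. That is a change of 4.36 ± 0.36 (SE), or 20.6-fold (adjusted p = 3.31e-05), and the call held whichever array was left out. AUR2, its close relative, gave 522.4 and 1104.9 at 6 h, against 32.5 and 87.4 at 2 h (13.0-fold, adjusted p = 0.00182). AUR3, the Aurora kinase of centromeric chromatin, gave 464.8 and 398.4 at 6 h, against 40.9 and 45.8 at 2 h (9.02-fold, adjusted p = 0.00347). For all 3 kinases the 6 h arrays lay far above the 2 h arrays, and the 0 h signals of 31.5 to 124.3 lay in the same range as the 32.5 to 126.3 at 2 h. The call of AUR2 was lost without replicate 2 at 6 h (adjusted p = 0.0738), and that of AUR3 without either array at 6 h (at most 0.0836).

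Both measured members of the spindle checkpoint list rose, of 9 listed. BUBR1, a checkpoint kinase-like protein at the kinetochore, gave 375.7 and 280.0 signal units at 6 h, against 1.7 and 11.1 at 2 h. Its change was 4.99 ± 0.83 (adjusted p = 0.00311), and it was lost without replicate 1 at 2 h (adjusted p = 0.0532). BUB3.1, a partner of such kinases, gave 1348.1 and 1238.9 at 6 h, against 111.5 and 149.4 at 2 h (9.67-fold, adjusted p = 0.000268). The times did not overlap for either gene. BUB3.2, a close relative of BUB3.1 that the list did not hold, gave 492.2 and 311.7 at 6 h, against 96.1 and 115.0 at 2 h (3.60-fold, adjusted p = 0.0356). Its call was lost under either other scaling and without any 1 of these 4 arrays (at most 0.32). Haspin, the kinase that phosphorylates histone H3 in mitosis, gave 336.0 and 258.3 at 6 h, against 39.3 and 53.1 at 2 h (adjusted p = 0.0146). Its call ended when any 1 of these 4 arrays was left out, with an adjusted p of at most 0.19. UBC20, a ubiquitin-conjugating enzyme of the mitotic E2-C family, gave 3389.3 and 3228.6 at 6 h, against 132.1 and 187.0 at 2 h. It rose 20.4-fold (adjusted p = 2.95e-05), and held its call without any 1 array.

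Proteins of the condensed chromosome rose in 4 of 5 measured members, with a median change of 4.53 over the list. 3xHMG-box2, a protein with HMG boxes that binds mitotic chromosomes, gave 2193.5 and 3434.0 signal units at 6 h, against 51.7 and 67.3 at 2 h. Its 42.9-fold rise (5.42 ± 0.38, adjusted p = 8.11e-06) was among the 15 largest. 3xHMG-box1 gave 523.6 and 579.5 at 6 h, against 20.5 and 32.9 at 2 h (17.9-fold, adjusted p = 0.0015). TOPII, DNA topoisomerase II, which untangles sister chromatids, gave 1309.4 and 1525.0 at 6 h, against 40.7 and 58.5 at 2 h (26.3-fold, adjusted p = 0.000192). All 3 calls held whichever array was left out. The fourth, AT3G57060, rose 23.2-fold (adjusted p = 0.00853), but lost its call without replicate 1 at 2 h or either array at 6 h (at most 0.0909). ATSMC2, a condensin subunit and the member that was not called, gave 204.6 and 179.6 at 6 h, against 92.5 and 70.6 at 2 h (adjusted p = 0.29).

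Kinesins, motor proteins that among other tasks work in spindle and phragmoplast, held many of the rises. Of the 11 mitotic kinesins measured, of 20 listed, 10 were called higher, and the list's median change was 4.37, against 0.13 over all named loci. The median was 4.11 within replicate 1 and 4.58 within replicate 2. Over the 10 that rose, signals ran from 232.8 to 1199.7 at 6 h, against 1.1 to 232.4 at 2 h. AT5G60930 gave 982.7 and 1199.7 at 6 h, against 50.8 and 4.3 at 2 h (47.9-fold, adjusted p = 0.000561). KINESIN-12B, a motor of the phragmoplast, gave 465.7 and 561.8 at 6 h, against 22.3 and 4.0 at 2 h (33.0-fold, adjusted p = 0.00288, and 0.0548 without replicate 2 at 6 h). The list's eleventh member, AT3G51150, had the lowest change, -0.69. Of the whole kinesin family, which includes these, 42 loci were measured and 20 were called higher, by 2.25-fold to 52.2-fold. KINESIN-13A had the smallest rise, with 1242.9 and 1499.1 at 6 h, against 614.9 and 591.6 at 2 h (adjusted p = 0.0282), and lost its call after median centring and without any 1 of the 4 arrays compared (at most 0.238). Of the mitotic kinesins 6 and 5 were called without replicate 1 or 2 at 6 h, and 5 held whichever array was left out. Of the family 7 were called without either replicate 1 or replicate 2 at 6 h, and 12 without replicate 1 at 2 h.

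**Figure D2:**
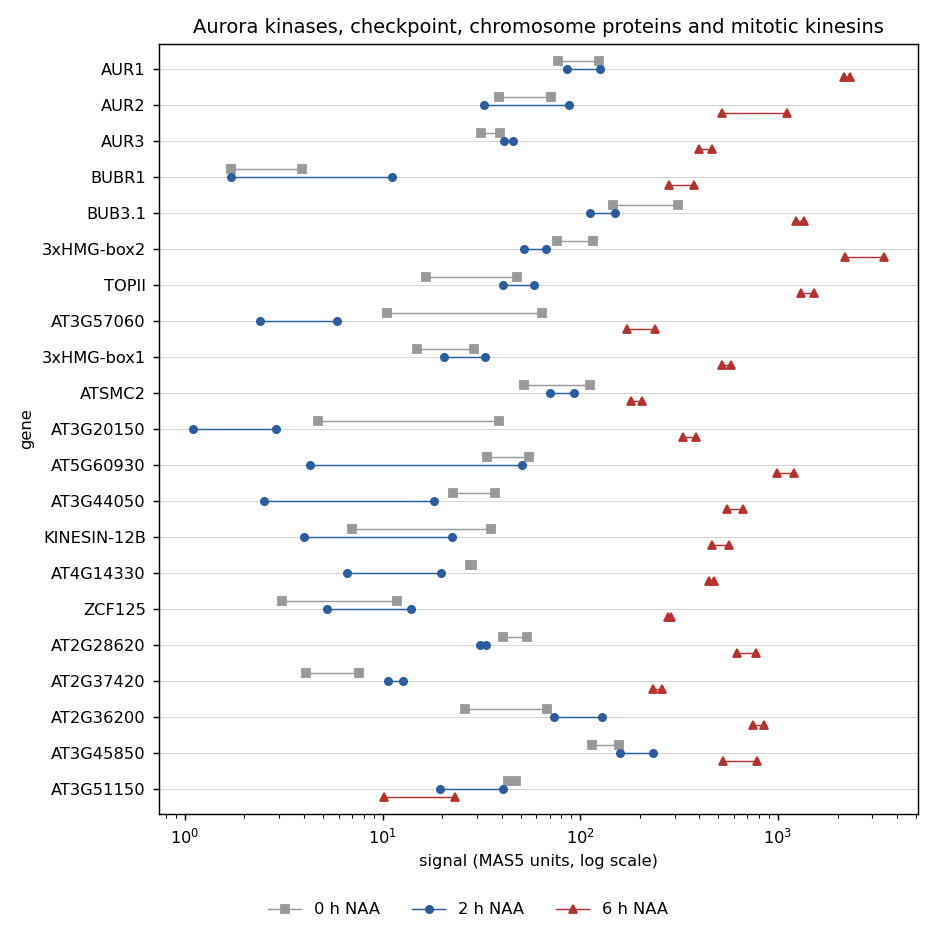
Signal of each array on a log axis for the measured Aurora kinases, spindle checkpoint genes, mitotic chromosome proteins and mitotic kinesins. Squares are 0 h, circles 2 h and triangles 6 h, with a line joining the 2 arrays of a time. For 19 of the 21 genes the 6 h arrays were called higher than the 2 h arrays, and ATSMC2 and AT3G51150 were not called.

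Of the DNA replication genes, 1 passed the test. PRL, the MCM7 subunit of the helicase that opens replication origins, was the only one of 6 measured DNA replication genes called, of 37 listed. It gave 2014.3 and 1823.0 signal units at 6 h, against 484.2 and 561.6 at 2 h (1.87 ± 0.28, adjusted p = 0.00145), and held without any 1 array. The other 5 genes had changes of 0.54 to 1.34, and the list's median was 1.01. At an unadjusted p under 0.05, 4 of the 6 were higher, against 7.59% of all named loci higher and 6.84% lower. None of the 5 measured histone genes was called in limma's fit, and 1 was lower at an unadjusted p under 0.05. HTR12, the centromeric histone H3, gave 195.8 and 102.0 at 6 h, against 48.7 and 55.7 at 2 h (adjusted p = 0.395). ASF1B, a histone chaperone, gave 491.7 and 504.5 at 6 h, against 170.2 and 230.0 at 2 h (adjusted p = 0.0456), a call that was lost under either other scaling and without any 1 of these 4 arrays (at most 0.332). No cyclin or cyclin-dependent kinase had a named probe set, and they are not analysed here.

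Of 2 measured regulators of mitotic transcription, AT1G63100 gave 198.4 and 260.1 signal units at 6 h, against 44.1 and 38.2 at 2 h (5.04-fold, adjusted p = 0.0365). Its call was lost after median centring and without any 1 of these 4 arrays (at most 0.301), and TSO1 was not called. KEU, a protein of vesicle fusion at the cell plate, gave 314.0 and 397.3 at 6 h, against 349.6 and 345.6 at 2 h (adjusted p = 0.988).

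SIM, a CDK inhibitor of the SIAMESE family that blocks mitosis, ran the other way. Its signals were 15.9 and 52.2 at 6 h, against 211.8 and 213.5 at 2 h, and 137.2 and 271.5 at 0 h. It fell by 2.65 ± 0.59 on the log2 scale (adjusted p = 0.0193), and the call was lost without either array at 2 h or replicate 1 at 6 h (at most 0.151). The other 4 measured CDK inhibitors, of 16 listed, were not called, and their signals ran from 4.6 to 126.8 at 6 h, against 8.7 to 149.0 at 2 h.

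Tubulins and expansins held 4 further rises, and XTH genes 2 falls. TUB7, a beta-tubulin, gave 2245.0 and 2241.7 signal units at 6 h, against 561.7 and 591.9 at 2 h (3.87-fold, adjusted p = 0.00304). TUA6, an alpha-tubulin, gave 2638.1 and 3393.9 at 6 h, against 728.8 and 1569.9 at 2 h (2.79-fold, adjusted p = 0.0385), and lost its call under either other scaling and without replicate 1 at 2 h or either array at 6 h (at most 0.416). The other 3 of the 5 measured tubulins were not called. TUB9 gave 1014.3 and 997.5 at 6 h, against 970.3 and 1116.5 at 2 h, and TUB5 gave 206.0 and 122.0, against 298.9 and 370.2 (adjusted p = 0.117). Of 19 measured expansins, which loosen walls, EXLA2 and EXPA15 were called higher. EXLA2 gave 551.4 and 552.9 at 6 h, against 124.2 and 61.6 at 2 h (6.01-fold, adjusted p = 0.00206). EXPA15 gave 1219.5 and 1123.6 at 6 h, against 304.9 and 418.3 at 2 h (3.25-fold, adjusted p = 0.0158, and at most 0.155 without replicate 1 at 2 h or either array at 6 h). EXPA4 gave 6246.6 and 4097.8 at 6 h, against 2596.1 and 2773.3 at 2 h, and was not called (adjusted p = 0.349). Of 10 measured XTH genes, whose enzymes cut and rejoin xyloglucan, XTH20 and XTH21 were called lower. XTH20 gave 57.3 and 78.5 at 6 h, against 320.9 and 290.6 at 2 h (4.30-fold lower, adjusted p = 0.00524, and at most 0.0765 without replicate 1 of either time). XTH21 fell by 2.64 ± 0.68 on the log2 scale (adjusted p = 0.0421), with signals as low as 2.1 at 6 h and 52.7 at 2 h. Its call was lost without either 0 h array, either 2 h array or replicate 1 at 6 h. The call was also lost with 20 in place of 5 added to the signals (adjusted p = 0.0895).

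Changes of cytosolic ribosomal proteins ran from -2.19 to 2.84, most of them above 0. Of 127 measured loci none was called by limma, while 22 were higher and 1 lower at an unadjusted p under 0.05, as were 1009 and 909 of 13286 named loci. The list's median change was 0.67, against 0.13 over all named loci, and 123 of the 127 changes lay above 0, as did 7604 of 13286 over all named loci. After centring each array on its median the list's median was 0.52, against -0.01 over all named loci.

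**Figure D3:**
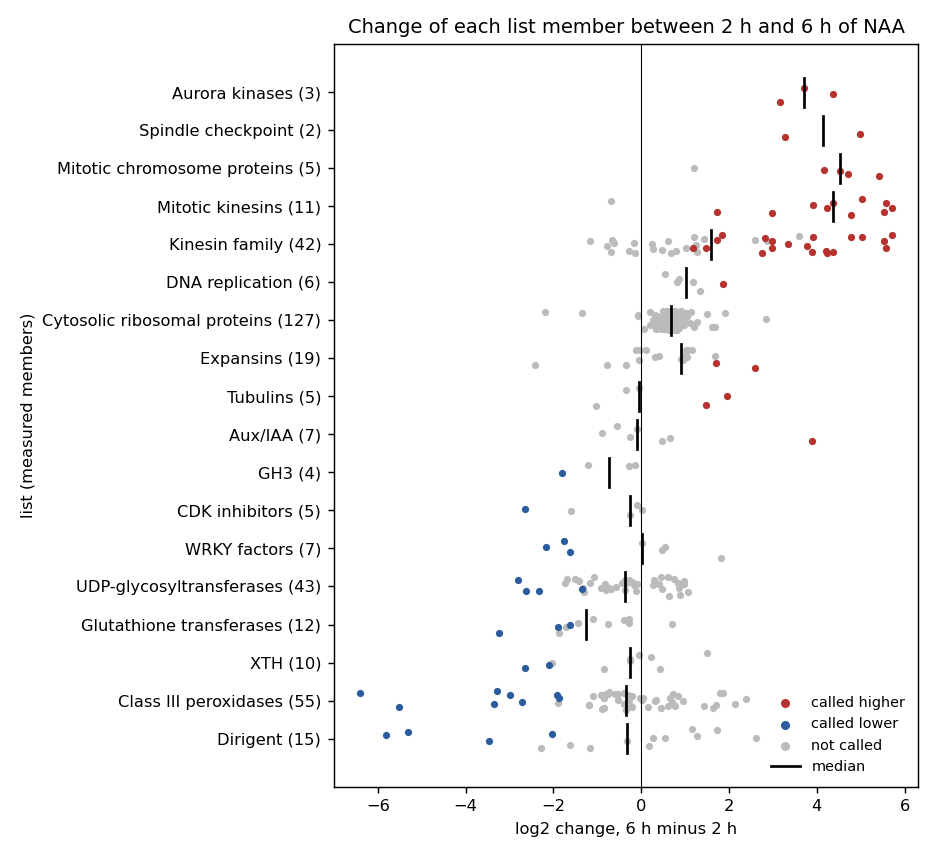
Log2 change of each measured list member, 6 h minus 2 h, with the number of members beside the list's name, called members in red or blue and the median as a bar. The 4 mitotic lists at the top have medians of 3.70 to 4.53, ribosomal proteins have a median of 0.67 and a range of -2.19 to 2.84, and the called members from GH3 down are all below 0.

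The regulators of lateral root formation did not move together. PUCHI, an AP2/ERF transcription factor of early primordia, gave 85.4 and 33.5 signal units before NAA, 1523.7 and 1265.5 after 2 h, and 6237.1 and 3719.9 at 6 h. From 2 h on it rose 3.46-fold (adjusted p = 0.0193), a call lost after median centring and without either array at 2 h or replicate 1 at 6 h (at most 0.207). CR4, the receptor-like kinase also known as ACR4 that governs formative divisions, gave 3.5 and 4.9 before NAA, 9.8 and 8.0 after 2 h, and 116.4 and 153.1 at 6 h. It rose 9.99-fold (adjusted p = 0.0277), and without any 1 of the 4 arrays compared it was not called (at most 0.213). LBD16, an LBD transcription factor that acts before the first division, gave 542.7 and 476.3 before NAA, 1920.4 and 2296.3 after 2 h, and 1167.2 and 736.8 at 6 h. Its fall of 2.26-fold between 2 h and 6 h had an adjusted p of 0.0481, was lost without any 1 of those 4 arrays (at most 0.418), and was also lost under either other scaling. LBD29, a related factor, gave 373.3 and 386.1 at 6 h, against 418.0 and 358.4 at 2 h (adjusted p = 0.988). RALFL34, a signal peptide precursor with a part in lateral root spacing, gave 1191.6 and 1701.0 at 6 h, against 119.9 and 172.6 at 2 h (9.59-fold, adjusted p = 0.000212), and held without any 1 array.

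Auxin response genes did not move together either. IAA20, an Aux/IAA protein without the usual degron, gave 391.5 and 377.8 signal units at 6 h, against 35.7 and 11.7 at 2 h (14.9-fold, adjusted p = 0.00999). Its call was lost without replicate 2 at 2 h or either array at 6 h (at most 0.122). The other 6 of 7 measured Aux/IAA genes had changes of -0.89 to 0.65 and were not called. IAA29 gave 4894.5 and 2095.6 at 6 h, against 4593.2 and 4778.9 at 2 h, and 498.0 and 234.0 at 0 h. Of 4 measured GH3 genes, whose enzymes join auxin to amino acids, only GH3.3 was called. It gave 3335.7 and 1879.2 at 6 h, against 8027.8 and 9665.1 at 2 h (3.51-fold lower, adjusted p = 0.0454). That call was lost without any 1 of the 4 arrays compared (at most 0.405) and after either change of scaling. GH3.1 and WES1 were not called, and WES1 gave 11684.7 and 9768.9 at 6 h, against 12466.0 and 13313.1 at 2 h. HAT2, an auxin-inducible HD-Zip factor, gave 271.0 and 346.4 at 6 h, against 1644.3 and 1703.5 at 2 h (5.39-fold lower, adjusted p = 0.0142, and at most 0.129 without any 1 of these arrays).

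Among named loci the 15 largest rises reached 332.2 to 4404.4 signal units at 6 h, against 1.0 to 112.1 at 2 h, and 2.8 to 115.8 at 0 h. They spanned 42.9-fold to 109-fold, and each held its call without any 1 array. Most are known here by locus alone. AT4G15830 was the largest, with 4404.4 and 4198.1 at 6 h, against 40 and 29.4 at 2 h (6.77 ± 0.40, adjusted p = 2.72e-06). AT5G48310 gave 2298.0 and 2206.1 at 6 h, against 32.2 and 27.7 at 2 h (64.7-fold). AT5G62550 gave 835.4 and 731.0 at 6 h, against 1.8 and 7.6 at 2 h (85.0-fold). The replicates of these 3 genes lay close together at 6 h. AT3G51720 and AT5G17160 were also above 1700 on both 6 h arrays, but their 2 h arrays disagreed. AT5G17160 gave 7.9 and 112.1 at 2 h, and AT3G51720 gave 9.2 and 78.2. Without the intensity trend neither was called (adjusted p = 0.072 and 0.0525). NDB4, a mitochondrial alternative NAD(P)H dehydrogenase, gave 387.2 and 547.2 at 6 h, against 2.4 and 4.4 at 2 h (55.8-fold, adjusted p = 0.000891). Kinesins made up 3 of the 15.

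Of 1535 named loci with a symbol, 40 were called higher and 85 lower, against 210 and 317 of all 13286 named loci. Of the called genes with a symbol, no overlap between the times and a mean signal of 200 or more, 38 were higher and 76 lower. This selection was added after the values were seen. Of these, 16 higher and 32 lower genes kept their call without any 1 array, and those named in the rest of this paragraph are among them. ATLP-1, a thaumatin-like protein, gave 1367.6 and 1758.2 signal units at 6 h, against 39.3 and 77.0 at 2 h (25.8-fold, adjusted p = 4.28e-05). FU, the FUSED-type kinase needed for cytokinesis, gave 794.5 and 698.0 at 6 h, against 113.8 and 166.5 at 2 h (5.25-fold, adjusted p = 0.000902), but a second probe set of the locus changed by 0.25 (adjusted p = 0.915). EXO, a protein that promotes growth of leaves and roots, gave 2572.0 and 2403.3 at 6 h, against 321.3 and 559.7 at 2 h (5.80-fold). Hsp70-2, a chaperone, gave 1153.8 and 931.9 at 6 h, against 178.0 and 99.3 at 2 h (7.54-fold). BGLU15, a beta-glucosidase, gave 989.0 and 1000.6 before NAA, 233.3 and 215.5 after 2 h, and 983.1 and 830.9 at 6 h, so that the 6 h signals were close to those before NAA.

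The 15 largest falls of named loci had 2.6 to 526.8 signal units at 6 h, against 258.3 to 8481.2 at 2 h, and 160.9 to 21091.7 at 0 h. AT4G30450 gave 7.1 and 7.9 at 6 h, against 1399.6 and 634.0 at 2 h, and 10474.9 and 8147.3 at 0 h (-6.24 ± 0.37 between 6 h and 2 h, adjusted p = 2.72e-06). AT3G62040 gave 11.8 and 9.5 at 6 h, against 1200.6 and 493.9 at 2 h (49.7-fold lower). MSRB5, a methionine sulfoxide reductase, gave 62.8 and 38.6 at 6 h, against 3592.5 and 1807.6 at 2 h, and 16318.3 and 5526.9 at 0 h (47.0-fold lower, adjusted p = 4.21e-05). These 3 genes were lower at each later time on every array. Replicates at 6 h disagreed for others. For 7 of the 15, replicate 1 at 6 h stood at least 4-fold above replicate 2, and for 1, AT3G53980, the order was the opposite. Leaving out a 6 h array also removes such a gap, so that check cannot show it. With robust variance estimation AT5G66390, AT1G44970 and AT5G65530 were not called (adjusted p = 0.17, 0.0761 and 0.0609). Without the intensity trend AT3G53980, AT4G02090 and AT4G17215 were among those not called (adjusted p = 0.0899, 0.101 and 0.0592). Among all 699 lower calls 22 had replicate 1 at least 4-fold above replicate 2 at 6 h and 6 the opposite, against 475 and 1076 of all 22746 probe sets.

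**Figure D4:**
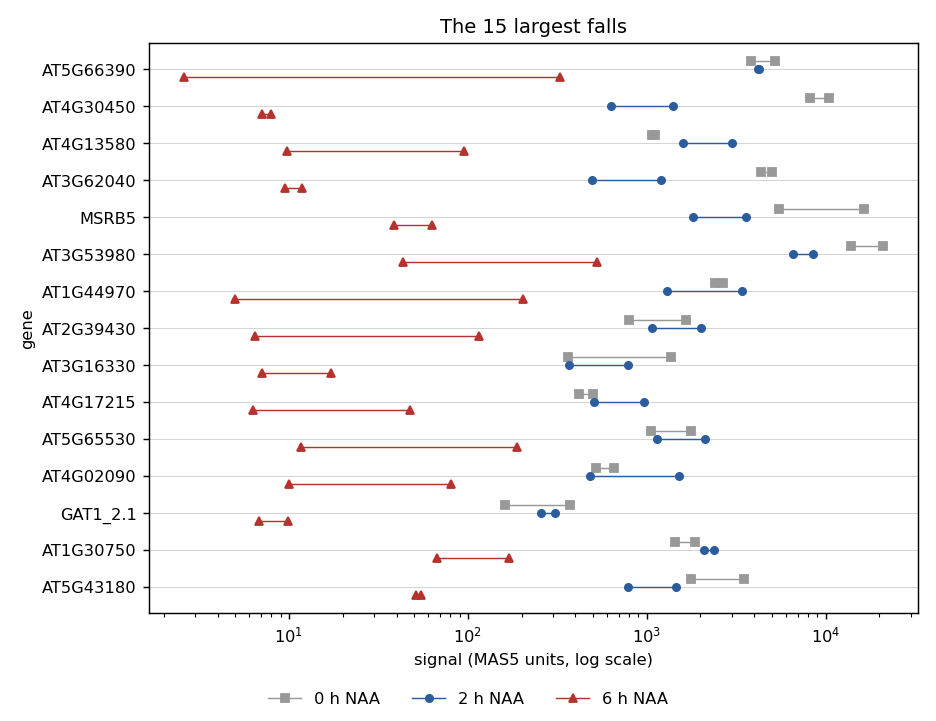
Signal of each array on a log axis for the 15 genes with the largest falls, with squares for 0 h, circles for 2 h and triangles for 6 h. All 6 h arrays lie below both 2 h arrays of the same gene, and the 6 h pairs of AT5G66390, AT1G44970 and AT2G39430 are the most widely spread.

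Some class III peroxidases and dirigent proteins were among the deepest falls. Of 55 measured peroxidases, 8 were called lower, and the list's median change was -0.34. Of the 55 changes 21 lay above 0, the largest 2.38. At an unadjusted p under 0.05 in limma's fit, 4 were higher and 10 lower, against 7.59% and 6.84% of all named loci. AT5G66390 gave 327.6 and 2.6 signal units at 6 h, against 4261.7 and 4205.2 at 2 h, a change of -6.40 ± 1.12 (adjusted p = 0.00419). AT1G44970 gave 203.1 and 5.0 at 6 h, against 1294.8 and 3391.8 at 2 h (-5.53 ± 0.95, adjusted p = 0.00379). In both, replicate 1 at 6 h was far above replicate 2, and with robust variance estimation neither was called (adjusted p = 0.17 for AT5G66390 and 0.0761 for AT1G44970). AT4G33420 gave 795.6 and 682.0 at 6 h, against 5827.8 and 4084.1 at 2 h (6.59-fold lower, adjusted p = 0.000417), with replicates close together. Prx37 gave 113.0 and 35.4 at 6 h, against 493.4 and 591.5 at 2 h (7.90-fold lower, adjusted p = 0.00288). PRXR1 was not called and gave 4499.9 and 4083.2 at 6 h, against 7176.4 and 8417.3 at 2 h (adjusted p = 0.368). The calls of 5 of the 8 held whichever array was left out, and 5 were called without replicate 2 at 2 h. Without the intensity trend none of the 8 was called.

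Of 15 measured dirigent loci, 4 were called lower, and 3 held without any 1 array. The list's median change was -0.33, and 7 of the 15 changes lay above 0, with a range of -5.82 to 2.61. AT4G13580 gave 95.4 and 9.8 signal units at 6 h, against 1590.7 and 2982.5 at 2 h (56.6-fold lower, adjusted p = 0.000198). AT2G39430 gave 115.0 and 6.5 at 6 h, against 1076.3 and 2014.5 at 2 h (39.8-fold lower, adjusted p = 0.00127). AT2G21100 gave 55.5 and 56.4 at 6 h, against 431.5 and 1034.2 at 2 h (11.1-fold lower). Without the intensity trend none of the 4 was called (adjusted p of 0.0557 to 0.14). AT3G13650 gave 866.8 and 751.8 at 6 h, against 1114.8 and 922.0 at 2 h and was not called (adjusted p = 0.806). GSO1, a receptor kinase that keeps the Casparian strip closed, gave 75.6 and 26.1 at 6 h, against 553.4 and 1212.5 at 2 h, and 601.1 and 828.6 at 0 h (16.5-fold lower, adjusted p = 0.00029). Its call, too, was lost without the intensity trend (adjusted p = 0.0573). GSO1 is the only one of 9 endodermis markers that had a named probe set. In sorted bulk RNA fewer cells of a type and less RNA per cell cannot be told apart. The few measured markers of other tissues stayed low and were not called. No listed marker of xylem, root cap or green tissue had a named probe set. The 2 cortex genes gave 21.1 to 68.8 at 6 h, against 16.2 to 105.2 at 2 h, the phloem gene gave 41.3 and 119.9, against 52.0 and 77.7, and the 2 epidermis and root hair genes 28.9 to 93.6, against 3.0 to 62.6. The part of other cell types in the falls was not tested.

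Single enzymes of several other families were lower at 6 h. APS4, an ATP sulfurylase of sulfate assimilation, gave 227.6 and 267.5 signal units at 6 h, against 1767.9 and 1888.4 at 2 h (7.28-fold lower, adjusted p = 0.000103). SUFE2, an activator of iron-sulfur cluster assembly, gave 151.1 and 199.4 at 6 h, against 1219.3 and 1100.6 at 2 h (6.51-fold lower). Of 12 measured glutathione transferases 3 were called lower, and the median change was -1.27. GSTU20 gave 74.3 and 40.9 at 6 h, against 536.4 and 591.3 at 2 h (9.42-fold lower, adjusted p = 0.000234). Of 43 measured UDP-glycosyltransferases, which attach sugars to small molecules, 4 were called lower. The median change of that list was -0.36, and 14 of the 43 changes lay above 0. UGT87A2 gave 593.9 and 811.9 before NAA, 2969.7 and 1317.1 after 2 h, and 342.5 and 223.6 at 6 h, 7.04-fold lower than at 2 h (adjusted p = 0.000814). BGLU46, a beta-glucosidase that acts on lignin precursors, gave 114.5 and 96.4 at 6 h, against 980.6 and 716.6 at 2 h (7.66-fold lower). CCR2, a cinnamoyl-CoA reductase, gave 869.1 and 1033.7 before NAA, 2388.1 and 1641.2 after 2 h, and 423.4 and 497.6 at 6 h (4.28-fold lower than at 2 h, adjusted p = 0.00108). The calls of these 6 named genes held without any 1 array.

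Further falls were those of a small secreted protein and of regulatory proteins. LCR68, a defensin-like protein, gave 351.0 and 250.1 signal units at 6 h, against 3996.3 and 3842.0 at 2 h (13.0-fold lower, adjusted p = 4.21e-05). MYBC1, a MYB-type transcription factor, gave 94.8 and 108.3 at 6 h, against 729.0 and 1189.5 at 2 h (8.81-fold lower). PUB24, a U-box ubiquitin ligase of immune signalling, gave 98.9 and 116.4 at 6 h, against 654.5 and 859.1 at 2 h (6.72-fold lower). DI19, a zinc finger protein of the drought response, gave 279.8 and 187.3 at 6 h, against 1642.1 and 1396.1 at 2 h (6.49-fold lower). These 4 held without any 1 array. Of 7 measured WRKY transcription factors 3 were called lower, and each of these calls was lost when some 1 array was left out. The list's median change was 0.01, and 4 of the 7 changes lay above 0, the largest 1.82. WRKY53, a regulator of senescence and defence, gave 288.6 and 202.6 before NAA, 781.0 and 1095.8 after 2 h, and 139.4 and 292.0 at 6 h (4.49-fold lower than at 2 h, adjusted p = 0.00489), and was lost when the second 2 h array or the first 6 h array was left out (at most 0.0691). WRKY6 gave 360.2 and 672.0 before NAA, 1618.5 and 1515.6 after 2 h, and 545.1 and 461.7 at 6 h (adjusted p = 0.0104, and at most 0.115 without any 1 of the 4 arrays compared).

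Transcripts that were off at one time and bright at the other ran mostly towards 6 h. Off means a signal under 50 on both arrays of a time, and bright a signal of 200 or more on both arrays of the other. These values chose the members, so the class is a description. In all, 83 probe sets were off at 2 h and bright at 6 h, 50 of them with a named locus, and 19 were off at 6 h and bright at 2 h, 6 of them named. Just inside the first class the highest 2 h signal was 49.8 and the lowest 6 h signal 202.2, and just outside they were 50.2 and 199.1. Just inside the second the highest 6 h signal was 48.7 and the lowest 2 h signal 202.7, and just outside they were 50.4 and 197.4. Within replicate 1 alone 139 and 78 probe sets met the rule, and within replicate 2 alone 139 and 106. Array medians were 80.9 and 95.0 at 6 h, against 75.8 and 81.7 at 2 h. After quantile normalization the classes held 72 and 21 probe sets, and after scaling to a common median 72 and 23. The 2 scalings kept 72 and 71 of the 83, and 16 and 17 of the 19.

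The authors deposited detection calls for replicate 1 at 2 h. The class rule used the signals of that same array, so the calls are no independent check. They gave 78 of the 83 probe sets as absent and 5 as present, and all 19 of the second class as present. Over all probe sets, at any signal, 43.8% were absent and 54.8% present. The 0 h arrays were not used by the rule. At 0 h, 43 of the 83 were off on both arrays, 1 was bright and 39 lay between. The bright one, AT2G28780, averaged 761.2 signal units before NAA, 23.8 after 2 h and 232.3 after 6 h. Of the 19, 16 were bright at 0 h and 3 lay between, with a median of 986.6 before NAA, 529.1 after 2 h and 13.8 after 6 h. The 83 had medians of 30.8 before NAA, 22.6 after 2 h and 463.5 after 6 h. Over all 22746 probe sets the medians were 95.6, 78.6 and 86.8 at the same times. The shares of all probe sets that were off or bright at 0 h were not counted, so the 0 h counts are only a description.

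**Figure D5:**
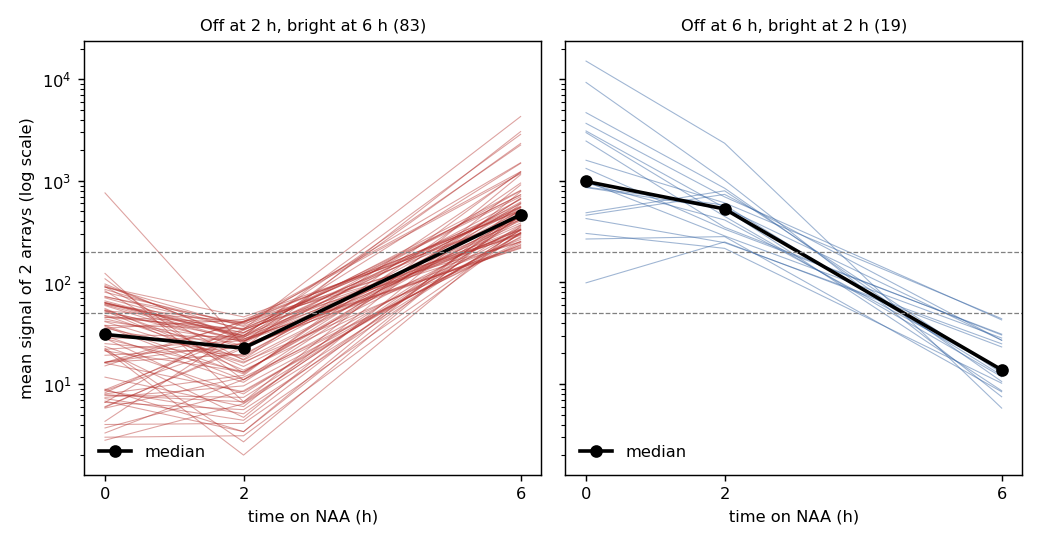
Mean signal of the 2 arrays of each time against hours on NAA, on a log axis, for the 83 probe sets off at 2 h and bright at 6 h and the 19 off at 6 h and bright at 2 h. The black line is the median and the dashed lines mark signals of 50 and 200. Most lines of the left panel are low at 0 h too, and most of the right panel start high.

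Among the named genes of the first class that have not been given yet, AT2G07170 gave 723.0 and 613.6 signal units at 6 h, against 12 and 13.8 at 2 h. AT2G28620, of the kinesin list, gave 777.9 and 622.3 at 6 h, against 31.1 and 33.3 at 2 h. AT3G27330 gave 681.8 and 668.2 at 6 h, against 16.7 and 5.4 at 2 h. AT3G02120 gave 587.3 and 872.9 at 6 h, against 28.9 and 35.2 at 2 h. All 4 were also called higher, and AT3G02120 gave 96.7 and 29.0 at 0 h. The one gene of the second class with a symbol was GAT1_2.1, a glutamine amidotransferase-like protein. It gave 6.8 and 9.9 at 6 h, against 258.3 and 307.3 at 2 h, and 160.9 and 374.6 at 0 h, but a second probe set of the locus changed by -1.56 (adjusted p = 0.384). AT3G16330 gave 7.1 and 17.3 at 6 h, against 787.6 and 367.6 at 2 h. AT4G28085, like GAT1_2.1 not bright on both 0 h arrays, gave 62.1 and 136.3 before NAA, 241.6 and 259.7 after 2 h, and 14.1 and 32.4 at 6 h.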

How the data were processed

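The authors deposited 1 MAS5 signal intensity per probe set for each of 6 one-colour arrays; MAS5 is named, without a version, per the submitters' processing notes. The authors' scaling was taken from the signals themselves, whose mean after trimming 2% at each end was 250.0 on every array. A deposited file of replicate 1 at 2 h also held a detection p-value and call, used only as a description. Of 22810 probe sets, 64 controls were left out. Signals entered limma 3.58.1 (R 4.3.3; lmFit, eBayes with an intensity trend) as log2(signal + 5), all 6 arrays in 1 fit with time as the factor (3 residual and 9.79 prior degrees of freedom, median residual SD 0.51), with no filter on low values. The code was tested on simulated data. Arrays have no depth, so their number limits the precision.

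A table of the platform's probe sets gave 1 gene for 13513, several for 503 and none for 8794; 13436 had a locus in the TAIR10.1 annotation (13286 loci, 1535 with a symbol), and the brightest probe set stood for a locus. Listed loci are named from general knowledge of the families where the annotation gives no symbol. The members, lists and tests were chosen with earlier results of these data known, and the lists of kinesins, peroxidases, dirigent and ribosomal proteins were added after the files were seen. The naming rule took the 15 largest rises and falls among calls without overlap and with a mean of 200 or more, up to 8 called members of each list, all measured members of 6 short lists, and the 12 brightest genes of each off and bright class. Called genes with a symbol were added after their values were seen. Alternatives were other pseudocounts, filters, scalings, variance settings, blocks, an added 2-fold minimum and leaving out arrays. Same-numbered arrays at 6 h and 2 h deviated together at r = 0.093, so the numbers were not taken as pairs. Promoter motifs and sequences were not analysed here.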

Additional observations from a re-analysis of the deposited data

How the results depend on the processing

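No called change of a named gene reversed its direction under any alternative. Changes near 0 that were not called could turn sign, as that of KEU did, 0.02 as reported and -0.13 after median centring. Without the intensity trend 159 probe sets were called, 105 higher and 54 lower. Median centring called 267 higher, and a fit of only the 4 arrays compared called 650 higher. Leaving out 1 array gave 509 to 1392 calls, 158 to 571 higher and 310 to 821 lower. Mitotic kinesins called numbered 2 with the filter at the 60th percentile, which tests fewer genes, 6 without the trend and 5 to 10 without 1 array. Kinesins of the whole family numbered 6, 9 and 7 to 22 under the same 3 settings. Peroxidases called lower numbered 0 without the trend and 5 to 9 without 1 array. Ribosomal proteins called higher numbered 1 with a pseudocount of 20 or the 60th percentile filter, 5 with only the 4 arrays, and 0 to 4 without 1 array. The filter at the 60th percentile left only 2 mitotic kinesins and 7 kinesins of the whole family to be tested. With the replicate number as a block 6 ribosomal proteins, 10 mitotic kinesins, 589 probe sets higher and 969 lower were called, and no named gene lost its call. The class bright at 6 h held 36 probe sets with off under 25, 40 with bright at 400 or more, and 139 in either replicate alone; the class bright at 2 h held 10, 7, and 78 or 106. Of 162 called named genes, 121 lost the call without the trend, 57 and 61 without replicate 1 or 2 at 2 h, 71 and 63 without replicate 1 or 2 at 6 h, 27 each with median centring or a block for control brightness, 25 with quantile normalization, and 13 with robust estimation. The within-replicate classes were added after seeing the data. The cause was not tested.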

Other observations

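Several falls between 2 h and 6 h followed a higher 2 h than 0 h signal. FMO, a flavin-containing monooxygenase, gave 649.7 and 791.1 signal units before NAA, 2110.3 and 2062.1 after 2 h, and 424.5 and 477.4 at 6 h. CHIL, a chalcone isomerase-like protein of flavonoid synthesis, gave 418.6 and 185.3 before NAA, 597.7 and 496.1 after 2 h, and 114.1 and 72.2 at 6 h. UGT73B4 gave 370.4 and 287.0 before NAA, 864.7 and 845.9 after 2 h, and 182.0 and 99.0 at 6 h. In all 3 both 2 h arrays were above both 0 h arrays, and both 6 h arrays were below them.

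Others fell at each later time. ACLA-1, a subunit of ATP citrate lyase, gave 4785.6 and 3845.4 before NAA, 2309.5 and 2550.8 after 2 h, and 877.8 and 742.3 at 6 h. HCT, an enzyme of lignin precursor synthesis, gave 2564.3 and 3955.9 before NAA, 1254.2 and 1985.7 after 2 h, and 325.6 and 475.4 at 6 h. BAT1, an acyltransferase that acts on brassinosteroids, gave 3814.0 and 2762.4 before NAA, 2034.7 and 1747.5 after 2 h, and 378.8 and 446.9 at 6 h. Of these 3, BAT1 kept its 6 h against 2 h call without any 1 array, whereas ACLA-1 lost it without any 1 of the 4 arrays compared (adjusted p at most 0.143) and HCT when the second 2 h array or the first 6 h array was left out (at most 0.0828).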
